A study of Mus musculus with 2 samples.

Results

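The transcripts of 10 acute phase genes, Saa1, Saa2, Saa3, Saa4, Lcn2, Orm1, Orm2, Orm3, Hp and Hpx, were measured in mouse liver with spatial transcriptomics (ST). They were taken from the count tables by symbol and are 10 of the 32285 genes listed there, and all 10 had reads in both sections. The genes were selected on earlier results of the same 2 sections, in which acute phase genes were higher after the high-fat diet, so their ratios between the sections describe these livers and test nothing. The samples were 1 liver section of 1 mouse fed a normal chow diet (NCD) and 1 liver section of 1 mouse fed a high-fat diet (HFD). Both were male C57BL/6J mice bought at 5 weeks of age, kept on their diet for 14 weeks and then given water by gavage as the vehicle for another 8 weeks on the same diet. Livers were perfused, frozen fresh and cut at 10 µm. In the 10x Visium assay used, a section lies on a slide printed with barcoded spots, a unique molecular identifier (UMI) tags each captured RNA so that copies of it count once, and a spot can hold several cells. With 1 section per diet, the diet, the animal, the section and the slide cannot be told apart, and no test between diets is possible. The 95% intervals given are exact and cover counting error only.

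Acute phase proteins are plasma proteins that the liver secretes in changed amounts during inflammation, mainly when IL-6 and IL-1 reach hepatocytes and act through STAT3, NF-κB and C/EBP transcription factors. Serum amyloid A proteins (Saa) are small apolipoproteins carried on HDL. Saa1 and Saa2 are the inducible liver forms, Saa3 is made largely outside hepatocytes, for example in macrophages and fat, and Saa4 is the constitutive form. Lcn2 (lipocalin 2) binds bacterial siderophores and so withholds iron from bacteria. It is also stored in neutrophil granules. Orm1, Orm2 and Orm3 encode orosomucoids (alpha-1-acid glycoproteins), carriers of lipophilic molecules in plasma. Hp (haptoglobin) binds free haemoglobin and Hpx (hemopexin) binds free haem.

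In GRCm38 with the GENCODE M21 annotation, the 4 Saa genes lie within 42316 bases of chromosome 7, from 46711998 to 46754313, and the 3 Orm genes within 21319 bases of chromosome 4, from 63344560 to 63365878. Hpx also lies on chromosome 7 (105591613 to 105600137), Lcn2 on chromosome 2 (32384633 to 32388252) and Hp on chromosome 8 (109575128 to 109579172). RefSeq promoters on GRCm38.p6, of 250 bases before and 50 bases after the start of transcription, were at hand for 8 of the 10 genes, Orm1 and Hp being the others. All 8 held the C/EBP motif TTGCNNAA on at least 1 strand, a motif found in 10.8% of all 32851 promoters of the same length. The STAT motif TTCNNNGAA was in 0 of the 8 and in 8.30% of all promoters. The form GGNNTTTCC of the NF-κB motif was in 1 of the 8, Saa3, against 5.82% of all, and the letters TATAAA were in 2, Orm2 and Orm3, against 13.6% of all. Both strands were searched, and a match says only that these letters are in the window. Other spellings of the motifs were not searched, so a promoter without a match can still hold a related site. The stretches from 250 to 61 bases before the start are printed for the 5 genes whose ratio between sections was at least 4, in lower case with the C/EBP match in capitals. They are chr7:46743041-46743230 (minus strand), chr7:46751583-46751772 (plus), chr2:32387800-32387989 (minus), chr4:63362199-63362388 (plus) and chr4:63355908-63356097 (plus). The Lcn2 stretch lies inside the GENCODE span of Lcn2 given above, since the RefSeq start used lies within that span.
Saa1: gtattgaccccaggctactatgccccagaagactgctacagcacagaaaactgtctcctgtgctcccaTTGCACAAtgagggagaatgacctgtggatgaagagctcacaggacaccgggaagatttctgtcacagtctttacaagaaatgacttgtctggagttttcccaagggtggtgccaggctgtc
Saa2: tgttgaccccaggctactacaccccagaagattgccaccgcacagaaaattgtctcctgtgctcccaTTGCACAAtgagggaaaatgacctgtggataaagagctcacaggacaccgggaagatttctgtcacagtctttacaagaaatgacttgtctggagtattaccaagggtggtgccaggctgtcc
Lcn2: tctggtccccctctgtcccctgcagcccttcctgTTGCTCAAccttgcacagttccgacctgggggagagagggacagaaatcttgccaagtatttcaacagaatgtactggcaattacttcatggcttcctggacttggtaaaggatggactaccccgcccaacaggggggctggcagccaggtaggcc
Orm2: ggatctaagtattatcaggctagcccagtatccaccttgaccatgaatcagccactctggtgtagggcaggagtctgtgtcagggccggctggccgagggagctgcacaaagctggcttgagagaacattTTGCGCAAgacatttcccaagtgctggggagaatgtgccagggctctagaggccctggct
Orm3: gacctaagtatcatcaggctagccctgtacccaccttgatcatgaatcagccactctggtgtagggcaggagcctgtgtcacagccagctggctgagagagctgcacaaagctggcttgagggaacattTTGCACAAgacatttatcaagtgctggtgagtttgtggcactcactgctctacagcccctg
The match of Saa1 and of Saa2 is the same 8 letters, TTGCACAA, 182 and 183 bases before the start, and Orm3 holds the same letters 121 bases before its start. Orm2 has TTGCGCAA at 120 bases, which reads as the motif on both strands, and Lcn2 has TTGCTCAA at 216 bases. The printed stretches of Saa1 and Saa2 share a run of 65 identical bases and those of Orm2 and Orm3 a run of 32, so these matches are not independent.

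Over tissue, the NCD section gave 29037988 UMIs in 3692 spots (median 4187.5) and the HFD section 72118803 UMIs in 3594 spots (median 18549). Depth set spots over tissue apart from spots off it in the HFD section, where the median off tissue was 1175.5 UMIs, but hardly in the NCD section, where it was 3383, so the NCD values rest on a less clear tissue call. Spots off tissue held 19.1% of the UMIs of the NCD slide and 2.93% of those of the HFD slide. Off tissue, Lcn2 was at 7.42 CPM (NCD) and 124 CPM (HFD), where CPM are UMIs per 1000000. The labels also name a haematopoietic stem cell line and an immune cell type. The counts do not show these: 5 hepatocyte genes (Alb, Apoa1, Ttr, Serpina1c and Apoc3) alone made up 85124 CPM in the NCD liver and 91034 in the HFD liver. Among marker lists, fibroblast genes were 38.6 CPM in the NCD liver and 185 in the HFD liver, genes of lipid-associated macrophages 38.8 and 129, and red blood cell genes 6738 and 1292. Levels between sections are pooled over spots, so more cells of a type and more RNA per cell cannot be told apart.

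The 2 inducible serum amyloid genes were about 5 to 6 times higher in the HFD section. Saa1 was at 107 CPM (103 to 110) in the NCD liver and at 529 CPM (524 to 534) in the HFD liver, a ratio of 4.96 (4.78 to 5.15). Saa2 was at 38.6 CPM (36.4 to 40.9) and 244 CPM (240.4 to 248), a ratio of 6.32 (5.95 to 6.72). No window of 90 bases in the last 500 bases of the annotated Saa1 transcript was shared with another Saa gene, and none of Saa2, Saa3 or Saa4 either. Saa4, the constitutive form, was at 87.0 CPM in the NCD liver and 249.9 CPM in the HFD liver, 2.87 times higher (log2 ratio 1.52, 1.46 to 1.58). Saa3 was rare in both, at 7.96 CPM (231 UMIs) and 13.9 CPM (1002 UMIs), a ratio of 1.75 (1.51 to 2.02). The 4 Saa genes were thus all higher in the HFD section. The log2 ratio of Saa3, 0.80, lay just above 1, which is 2-fold, in spots drawn down to 3000 UMIs (1.02) and with off-tissue signal subtracted (1.01), and was 1.27 without the richest 1% of spots.

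Lcn2 had the highest ratio of the 10 genes. It had 222 UMIs in the NCD section, 7.65 CPM (6.67 to 8.72), and 12165 UMIs in the HFD section, 169 CPM (166 to 172). The ratio was 22.1 (19.3 to 25.3). Neutrophil genes, which mark another source of Lcn2, were rare. The 10 neutrophil genes summed to 16.3 CPM in the NCD liver and 12.3 CPM in the HFD liver, with Mpo at 0 UMIs in both, Ltf at 0 and 3, Ngp at 0 and 4, and Ly6g at 1 and 0. S100a9 went from 9.06 to 4.92 CPM, S100a8 was at 5.44 and 5.03 CPM, and Csf3r, the receptor for the growth factor of neutrophils, had 28 and 122 UMIs, 0.96 and 1.69 CPM. Of the fat cell list, Adipoq had 0 and 3 UMIs and Lep 0 in both sections, but Cfd had 10 and 511 UMIs and Car3, which gave most UMIs of the list, was at 571 and 2357 CPM. The part of these cells in the level of Lcn2 was not tested.

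The 3 orosomucoid genes differed from each other. Orm1 was at 847 CPM (837 to 858) in the NCD liver and 912 CPM (905 to 919) in the HFD liver, a ratio of only 1.08 (1.06 to 1.09). Scaling the sections to their median gene put Orm1 on the other side, at -0.09 on the log2 scale. Orm2 was at 19.5 CPM (17.9 to 21.1) and 104 CPM (102 to 107), a ratio of 5.36 (4.92 to 5.85). Orm3 was at 5.72 CPM (4.88 to 6.66) and 24.8 CPM (23.7 to 26.0), a ratio of 4.34 (3.70 to 5.12). Orm1 and Orm2 share 16.3% of the 90-base windows in the last 500 bases of their transcripts, and how their shared reads were counted is uncertain, while Orm3 shares none. The 3 genes together were at 872 and 1041 CPM, a ratio of 1.19, since Orm1 gave most of their UMIs.

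Both scavenger genes were higher in the HFD section. Hp was at 1954 CPM (1938 to 1970) and 5130.1 CPM (5114 to 5147), 2.63 times higher (2.60 to 2.65). Hpx was at 2561 CPM (2543 to 2579) and 5310.4 CPM (5294 to 5327), 2.07 times higher (2.06 to 2.09). Off tissue, Hpx was at 3063 CPM on the NCD slide and 3763 on the HFD slide, a ratio of 1.23, and Hp had a ratio of 1.82.

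In all, 8 of the 10 genes were at least 2-fold higher in the HFD section and 0 were at least 2-fold lower. Of the 11913 genes whose UMIs in both sections summed to at least 100, 10.8% were at least 2-fold higher and 2.06% at least 2-fold lower. The median ratio was 1.82 on the log2 scale for the 10 genes and 0.24 for all 11913. Scaled to the median gene, Hpx was at 0.86 on the log2 scale and so below 2-fold. Saa3 passed 2-fold under the 3 settings given above, the last of which has a rise built in. Since the genes were chosen by this ratio, the counts are a description. The plot of levels by section shows the 10 genes side by side.

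**Figure D1:**
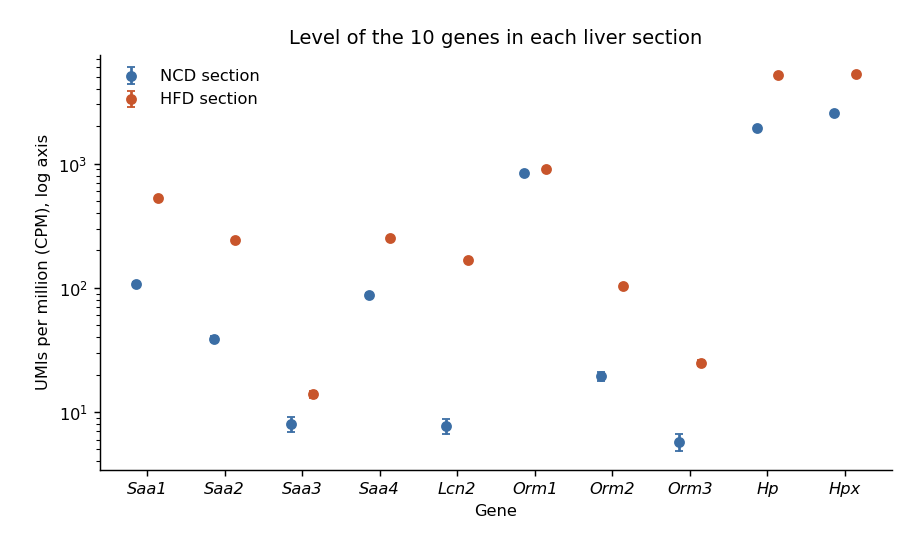
Level of each gene in UMIs per 1000000 (CPM, log axis) in the NCD section (blue) and the HFD section (orange), pooled over all spots over tissue; bars are exact 95% Poisson intervals, mostly smaller than the points. Lcn2 is the furthest apart, at 7.65 and 169 CPM, and Orm1 the closest, at 847 and 912 CPM. Counts were not divided by transcript length, so heights are compared within a gene.

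Position in the liver lobule was read from other genes. The lobule runs from the portal vein, where blood enters, to the central vein, where it leaves, and hepatocytes along the way express different genes. Each spot with at least 1000 UMIs was given an index from 10 pericentral genes, such as Glul and Cyp2e1, and 10 periportal genes, such as Cyp2f2 and Sds, none of them among the 10 genes described here. The 2852 NCD spots and the 3590 HFD spots were cut by this index into 5 groups of equal size, from periportal (group 1) to pericentral (group 5). Depth differed along this axis: the median spot of group 1 had 4116 UMIs (NCD) and 27587.5 UMIs (HFD), and that of group 5 had 7703.5 and 17648.5. The intervals assume that UMIs fall independently, and for Saa1 and Saa2, which clump in spots, they are too narrow.

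Saa1 had a periportal to pericentral slope in the HFD section and nearly none in the NCD section. In the HFD section it was at 667, 568, 522, 431 and 371 CPM from group 1 to group 5, so that group 1 was 1.80 times higher than group 5. In the NCD section it was at 99.1, 113, 95.9, 113 and 112 CPM, and the log2 ratio of group 5 to group 1 was 0.18 (-0.00 to 0.36). Saa2 in the HFD section was 1.89 times higher in group 1, at 309 CPM, than in group 5, at 164 CPM. In the NCD section its log2 ratio of group 5 to group 1 was 0.34 (0.02 to 0.66), with 230 and 124 UMIs, and 0.94 in spots drawn down to 3000 UMIs. The ratio of HFD to NCD was therefore larger near the portal vein: 6.73 in group 1 and 3.31 in group 5 for Saa1, and 10.05 and 4.21 for Saa2.

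Saa4 had a slope of the same sign as Saa1 and Saa2 in each section, but a shallower one in the HFD section. Saa4 went from 71.6 CPM in group 1 to 110.04 CPM in group 5 of the NCD liver, which is a log2 ratio of 0.62 (0.42 to 0.82). The HFD values were 271 and 242 CPM, a log2 ratio of -0.16 (-0.23 to -0.10). The HFD to NCD ratio of Saa4 was larger near the portal vein, as for Saa1 and Saa2: 3.78 in group 1 and 2.19 in group 5. Saa3 had 23 and 41 UMIs in these groups of the NCD section and 304 and 178 in the HFD section, and both of its intervals included 0.

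Lcn2 was higher near the portal vein in both sections. In the HFD section it was at 209 CPM in group 1 and at 186, 169.6, 139 and 115 CPM in the following groups, a log2 ratio of group 5 to group 1 of -0.87 (-0.95 to -0.78). In the NCD section the ratio was -0.88 (-1.55 to -0.21), but it rested on 45 and 36 UMIs and was -0.22 with 3 position groups in place of 5. The HFD to NCD ratio of Lcn2 lay between 15.3 and 26.7 in the 5 groups, with no order along the lobule.

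Orm2 and Orm3 were pericentral in the NCD section, the opposite of Orm1. Orm2 was at 7.44 CPM (30 UMIs) in group 1 and at 13.1, 22.2, 22.3 and 27.8 CPM (165 UMIs in the last), a log2 ratio of 1.90 (1.34 to 2.52). It was nearly level in the HFD section, between 98.2 and 113 CPM, with a log2 ratio of -0.07 (-0.17 to 0.03). Its HFD to NCD ratio thus went from 13.9 in group 1 through 8.59, 4.94 and 4.41 to 3.53 in group 5. Orm3 went from 1.74 CPM (7 UMIs) to 9.28 CPM (55 UMIs) in the NCD liver, which is a log2 ratio of 2.42 (1.28 to 3.80), and 3.17 in spots drawn down to 3000 UMIs. The HFD levels went from 18.5 to 23.9 CPM with the highest, 31.3 CPM, in groups 3 and 4, and its log2 ratio was 0.37 (0.15 to 0.59). Orm1 was higher near the portal vein by nearly the same factor in both sections, 1.49 in the NCD liver and 1.48 in the HFD liver, and its HFD to NCD ratio was between 1.03 and 1.06 in all 5 groups.

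Hpx had the steepest periportal slope of the 10 genes in the HFD section, from 7087 CPM in group 1 to 3521 CPM in group 5, a 2.01-fold difference. In the NCD section it went from 3549 to 1950.4 CPM, 1.82-fold. Hp went from 5890.4 to 4073 CPM in the HFD section (1.45-fold) and from 2139 to 1753 CPM in the NCD section (1.22-fold). The HFD to NCD ratio of Hp was 2.75 in group 1 and 2.32 in group 5, and that of Hpx lay between 1.81 and 2.01 in the 5 groups.

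By the rule of at least 1.5-fold between the end groups, among genes with at least 100 UMIs in them, 2 of 7 genes in the NCD section were higher in group 5 (Saa4 and Orm2) and 1 was lower (Hpx). Over all genes, 11.6% of 5913 were higher and 2.67% lower. Saa3, Lcn2 and Orm3 were below the minimum there. Of the 10 genes in the HFD section, 0 were higher and 4 (Saa1, Saa2, Lcn2 and Hpx) were lower in group 5, against 6.8% and 4.26% of 9884 genes. The plot across lobule position shows these profiles.

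**Figure D2:**
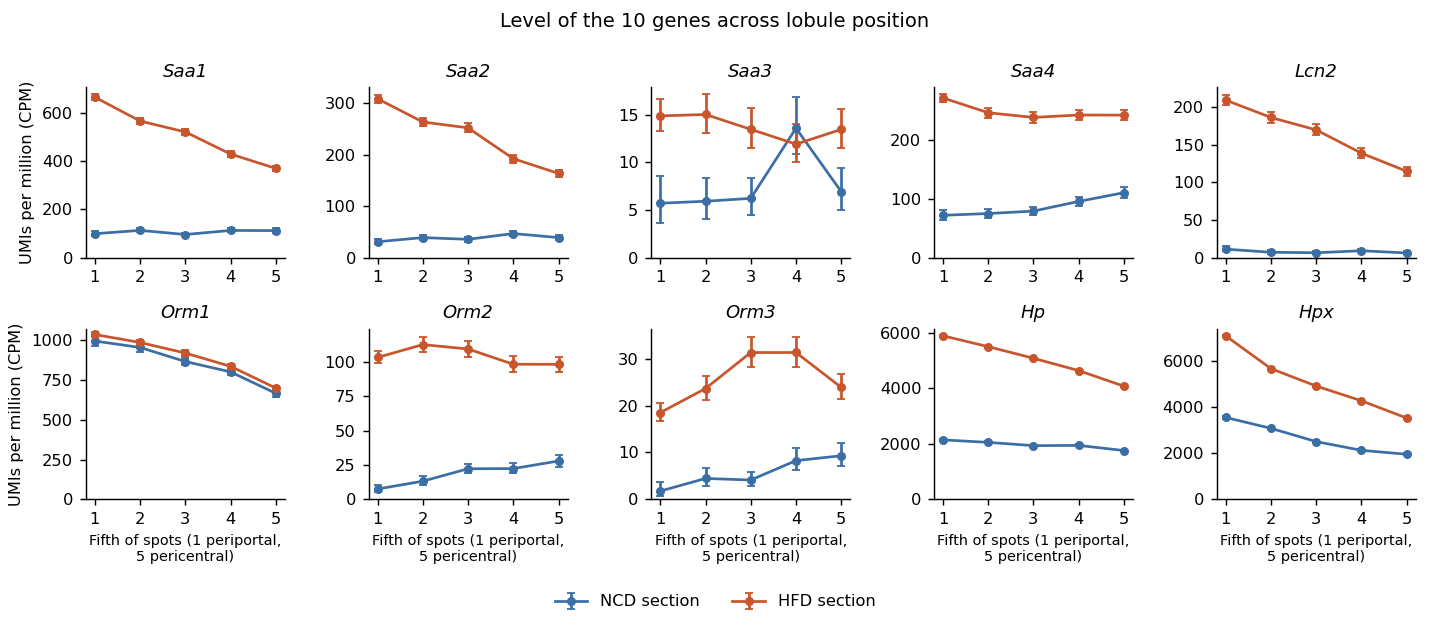
Level in UMIs per 1000000 (CPM, linear axes starting at 0, a different one for each gene) in 5 equal groups of spots from periportal (1) to pericentral (5), for the NCD section (blue) and the HFD section (orange); bars are exact 95% Poisson intervals. Saa1 falls from 667 to 371 CPM across the HFD section and stays between 95.9 and 113 CPM in the NCD section, and Orm2 goes from 7.44 to 27.8 CPM in the NCD liver and stays between 98.2 and 113 CPM in the HFD liver.

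The spread over spots was compared after each spot with at least 3000 UMIs had been drawn down at random to 3000, which kept 2107 NCD spots and 3538 HFD spots. Saa1 was then found in 21.0% of the NCD spots and 68.97% of the HFD spots, and Saa2 in 8.69% and 44.3%. Lcn2 was found in 2.09% and 35.9%, Saa4 in 23.0% and 52.0%, Orm2 in 5.08% and 25.4%, Orm3 in 1.57% and 7.09% and Saa3 in 2.14% and 4.07%. Orm1 was in over 91% of the spots of each section, and Hp and Hpx in at least 99.8%. Without drawing down, Lcn2 was in 4.85% of the NCD spots and 83.7% of the HFD spots, and off tissue it was in 3.62% and 14.8% of spots. For Saa1 these shares were 31.4% and 97.3% over tissue and 36.2% and 34.6% off tissue, so in the NCD section a spot with an Saa1 UMI was no more frequent over tissue than off it.

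Saa1 and Saa2 were unevenly spread, most of all in the NCD section. The variance of UMIs per spot divided by their mean, which is 1 when UMIs fall at random, was 3.69 for Saa1 and 4.44 for Saa2 in the NCD liver and 2.07 and 1.82 in the HFD liver. Without the richest 1% of spots the ratio of variance to mean in the NCD section was 1.35 for Saa1 and 1.07 for Saa2, and in the HFD section 1.499 and 1.29. The spots were dropped by the same counts, which by itself tends to lower the ratio: Saa4 in the NCD section went from 1.01 to 0.92. These values are therefore not to be read against 1. Single spots could be as rich in the NCD section as in the HFD section. The richest NCD spot had 143 Saa1 and 98 Saa2 UMIs among 17898, or 13465 CPM, and the richest HFD spot had 185 and 141 among 33841, or 9633 CPM. The same NCD spot also held 28 of the 231 Saa3 UMIs of the section and 12 of the 222 Lcn2 UMIs, but only 3 Saa4 UMIs, with 5 neutrophil list UMIs and 5 Kupffer cell list UMIs. Of the 2107 NCD spots, 100 (4.75%) had more Saa1 and Saa2 per UMI than the median HFD spot, at 568 CPM.

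Saa4, from the same gene cluster, had a variance over mean of 1.01 in the NCD liver and 1.02 in the HFD liver, and Orm1 of 1.09 and 1.08. Lcn2 was at 1.02 in the NCD section, where it was rare, and at 1.28 in the HFD section. Hpx was at 1.78 and 2.18. The plot of the spread over spots gives both measures for every gene.

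**Figure D3:**
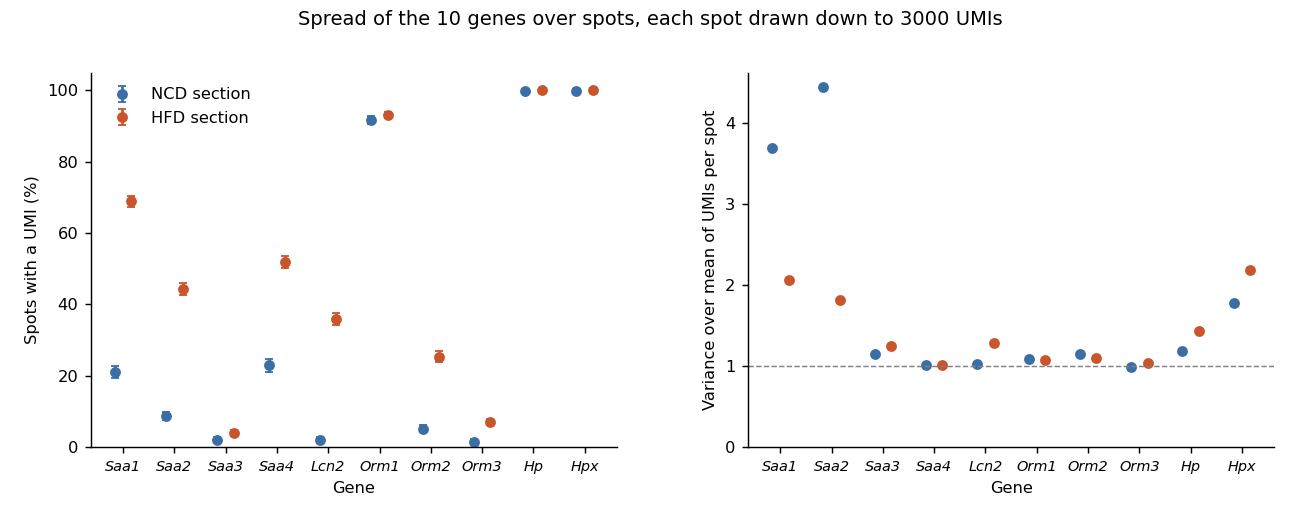
Left, share of spots with at least 1 UMI of each gene (percent, exact 95% intervals); right, variance over mean of UMIs per spot, with the dashed line at 1 for UMIs that fall at random. All spots were drawn down to 3000 UMIs (2107 NCD spots, blue, and 3538 HFD spots, orange). On the right, Saa1 and Saa2 stand above the other genes in the NCD section, at 3.69 and 4.44, whereas in the HFD section Hpx, at 2.18, is above both, and Lcn2 moves from 2.09% to 35.9% of spots on the left.

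Within the HFD section, the genes that were high together were Hp with Hpx and Saa1 with Saa2. Over 3025 HFD spots drawn down to 10000 UMIs, a depth chosen after seeing the data, Pearson correlations of log counts were 0.60 for Hp with Hpx, 0.54 for Saa1 with Saa2, 0.38 for Orm1 with Hpx, 0.34 for Saa1 with Hpx, 0.34 for Saa1 with Lcn2 and 0.33 for Orm1 with Hp. Saa4 and Orm3 had correlations between -0.03 and 0.05 with all the other genes. Few UMIs per spot hold such values near 0, which limits Orm3, at 24.8 CPM in the HFD liver. Saa4, at 249.9 CPM, was about as abundant as Saa2, at 244 CPM. At 3000 UMIs Hp with Hpx had 0.31 and Saa1 with Saa2 0.32. In 1038 NCD spots at 10000 UMIs, Saa1 with Saa2 had 0.48, Saa2 with Saa3 had 0.31 and Hp with Hpx 0.23. The spots of a section share a library, a slide and the lobule axis, so these values are a description.

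In the 177 HFD spots richest in Saa1 and Saa2 (5%), Lcn2 was at 462 CPM against 150.3 CPM in the other spots, and Orm2 at 236 against 96.1, but Saa4 was at 236 against 251 and Orm3 at 23.1 against 24.96. Of these spots, 44.1% were in the periportal group 1 and 10.2% in the pericentral group 5. Among 5423 other genes with at least 1000 UMIs, those most like Saa1 and Saa2 over HFD spots at 3000 UMIs were Mt1 (0.25), Spp1 (0.20), Gsn (0.16), Mgp (0.15) and Acta2 (0.15). Mt1 is a metallothionein that is itself an acute phase gene, and Acta2 and Mgp are genes of contractile and matrix cells. For Lcn2 they were Mup20 (0.13), Spp1 (0.13), Mt1 (0.10), Ly6d (0.09) and Clu (0.08), all weak at this depth. At 10000 UMIs the 5 highest for Saa1 and Saa2 were Mt1 (0.38), Spp1 (0.34), Mt2 (0.28), Tmsb4x (0.27) and Mgp (0.26). Those for Lcn2 were Mt1 (0.25), Mup20 (0.24), Spp1 (0.23), Trf (0.21) and C3 (0.18). Gsn, Acta2, Ly6d and Clu were thus among the 5 highest only at 3000 UMIs.

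Spots rich in the markers of other cells were then compared with the remaining spots of their section. Spp1 (osteopontin), which bile duct cells and macrophages make, was taken alone because it was among the 5 genes most like Saa1 and Saa2 and most like Lcn2, so its values here restate that likeness as levels. In the 177 HFD spots richest in Spp1, Saa1 and Saa2 together were at 1650 CPM against 706 CPM elsewhere, a log2 ratio of 1.22 (1.19 to 1.26), and Lcn2 was at 326 CPM against 157 CPM, 1.06 (0.98 to 1.13). Of these spots, 70.1% were in the periportal group. Within that group alone the log2 ratios were 0.98 (0.93 to 1.02) for Saa1 and Saa2 and 0.72 (0.62 to 0.81) for Lcn2. For the bile duct list without Spp1 (Krt7, Krt19, Epcam, Sox9 and Cldn4) they were 0.53 and 0.36 over all spots, and 0.29 and 0.13 within the periportal group.

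HFD spots rich in fibroblast genes, such as Col1a1 and Col3a1, had Saa1 and Saa2 at 1667 CPM against 728 CPM, a log2 ratio of 1.19 (1.15 to 1.23), but Lcn2 only at 198 against 167 CPM, 0.24 (0.13 to 0.35). HFD spots rich in the genes of lipid-associated macrophages (Trem2, Gpnmb, Cd9, Mmp12, Lpl and Itgax) had higher Saa1 and Saa2, 0.93 (0.89 to 0.97), Lcn2, 0.89 (0.80 to 0.98), Orm2, 0.74 (0.62 to 0.86), and Saa3, 1.20 (0.90 to 1.48, 111 UMIs). Saa4 was lower in the same spots, -0.22 (-0.32 to -0.11). HFD spots rich in neutrophil genes had Lcn2 at 218 CPM against 167 CPM, a log2 ratio of 0.39 (0.27 to 0.50). Saa1 and Saa2 together were at 0.39 (0.34 to 0.44) there and Saa3 at 0.93 (0.57 to 1.27, 74 UMIs). In the NCD section, the spot richest in Saa1 and Saa2 was among the 105 spots rich in neutrophil genes. With it these had Saa1 at 200.2 CPM against 102 CPM in the other spots and Saa2 at 98.7 against 34.9 CPM. Without it Saa1 was at 97.7 CPM, Saa2 at 27.9 CPM and Saa3 at 5.14 CPM (7 UMIs), each with an interval of the ratio that included 0 on the log2 scale. That spot was in none of the other NCD sets plotted, and without it NCD spots rich in fibroblast genes had Saa1 and Saa2 at 395 CPM against 127 CPM. Spots rich in Kupffer cell genes had 358 against 129 CPM, and those rich in lipid-associated macrophage genes 297 against 132 CPM. The values were 169 against 135 CPM for Spp1, 155 against 135 for the bile duct list without Spp1 and 120 against 136 for endothelium. Hp differed by at most 0.27 on the log2 scale in all the marker-rich spots plotted. The fibroblast and lipid-associated macrophage ratios given here are over all lobule positions. In the HFD section both lists were higher in the periportal than the pericentral group, at 209 against 171 CPM and 127 against 107 CPM. Spot depth moved with some lists: HFD spots rich in the bile duct list had a median of 28976 UMIs and the others 18370, while for fibroblast genes the medians were 17504 and 18816. In the NCD section the medians were 6833 and 9974.5 for fibroblast genes and 5926 and 10122 for Kupffer cell genes. For lipid-associated macrophage genes they were 4856 and 10238 there. Whether these cells carry the transcripts or lie beside hepatocytes that do was not tested. The plot of marker-rich spots gives the values for all 10 genes.

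**Figure D4:**
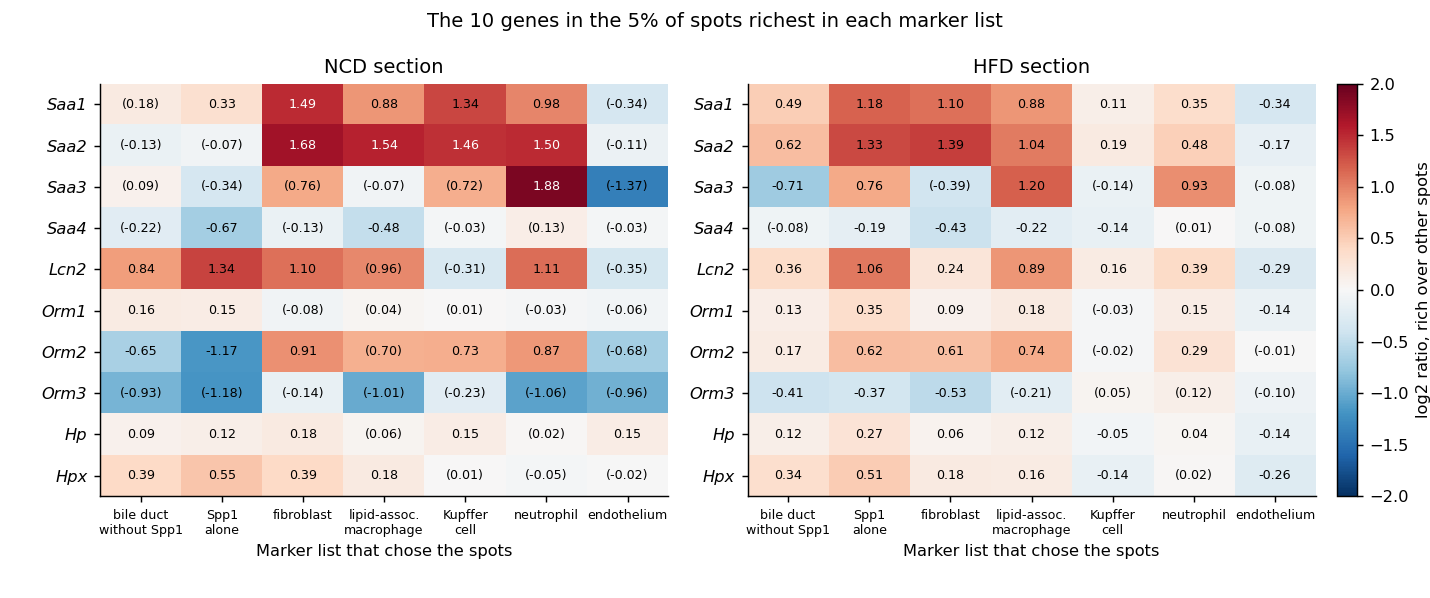
log2 ratio of each gene's CPM in the 5% of spots richest in a marker list over the remaining spots with at least 3000 UMIs, for the NCD section (105 rich spots, left) and the HFD section (177 rich spots, right); red is higher in the rich spots, blue lower, and values in parentheses have a 95% interval that includes 0. In the HFD section Saa1 and Saa2 are highest in spots rich in Spp1 (1.18 and 1.33) and in fibroblast genes (1.10 and 1.39), while Hp stays between -0.14 and 0.27. The neutrophil column of the NCD section rests on 1 spot for Saa1, Saa2, Saa3 and Lcn2.

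Other acute phase genes went both ways. Of 26 other positive acute phase genes with at least 100 UMIs, 8 were at least 2-fold higher in the HFD section, 3 at least 2-fold lower and 15 between, where 10.8% of all genes were higher and 2.06% lower. Their median log2 ratio was 0.11, against 0.24 for all genes. Il1rn, the IL-1 receptor antagonist, was 4.67 times higher, from 2.41 to 11.3 CPM, and Steap4, a metalloreductase, 4.41 times, from 35.7 to 157 CPM. Cd14, the lipopolysaccharide co-receptor, was 3.42 times higher and Hamp2 3.27 times. Mt1, Mt2, Cp (ceruloplasmin) and the protease inhibitor Serpina3n were 2.29 to 2.48 times higher.

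The fibrinogen genes and pentraxins were lower in the HFD section or within a few percent of the NCD level. Fga was at 1753 CPM in the NCD liver and 1492 in the HFD liver, Fgb at 2994 and 1893, and Fgg at 1802 and 1675. Crp was at 318 and 329 CPM, Apcs (serum amyloid P) at 148 and 145 CPM, and C3 at 3538 and 2603 CPM. Hamp (hepcidin), the hormone that limits iron export and an IL-6 target, was at 3949 CPM in the NCD liver and 599 CPM in the HFD liver, 6.60 times lower. Serpina3k was 4.998 times lower and Serpina1e 13.3 times lower. Genes in multigene families, such as Serpina1, Serpina3 and Hamp, can share reads with their copies and are uncertain one by one.

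Of 12 negative acute phase genes, which fall in inflammation, 2 were at least 2-fold higher (Apoa4, 10.8 times, and Serpina6, 2.01 times) and 1 at least 2-fold lower (Egfr, 5.34 times), beside the same 10.8% and 2.06% of all genes. Their median log2 ratio was 0.22. Alb was at 56011 and 57872 CPM, Ttr at 10858 and 16727 CPM, and Trf (transferrin) at 6726 and 11658 CPM, while Rbp4 (retinol binding protein) was at 5625 and 4706 CPM and Igf1 at 617 and 423 CPM. Of 26 genes of IL-6 and IL-1 signalling with at least 100 UMIs, 6 were at least 2-fold higher and 1 lower, against 10.8% and 2.06% of all genes. The higher ones were the receptors Osmr (2.57) and Il1r1 (2.25), the STAT3 feedback inhibitor Socs3 (2.66), the NF-κB subunit and cofactor genes Nfkb1 (2.16) and Bcl3 (2.66), and the transcription factor Cebpd (2.01). Cebpb was 1.88 times and Stat3 1.46 times higher. Of the cytokines, Il6 and Il22 had 0 UMIs in both sections, with intervals up to 0.127 CPM (NCD) and 0.051 CPM (HFD). Osm had 0 and 9 UMIs and Tnf 12 and 19. The IL-1 genes were detected at low levels, Il1b with 237 UMIs (NCD) and 282 UMIs (HFD), which is 2.09 times lower in CPM, and Il1a with 107 and 231. Of 13 receptors and partners of the proteins with at least 100 UMIs, 1 was at least 2-fold higher, 1 at least 2-fold lower and 11 between, beside the same 10.8% and 2.06% of all genes. Cd36 was 3.49 times higher. Cd163, the macrophage receptor for haptoglobin bound to haemoglobin, was 13.5 times lower, from 174 to 32 UMIs. The plot of section ratios sets the lists side by side.

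**Figure D5:**
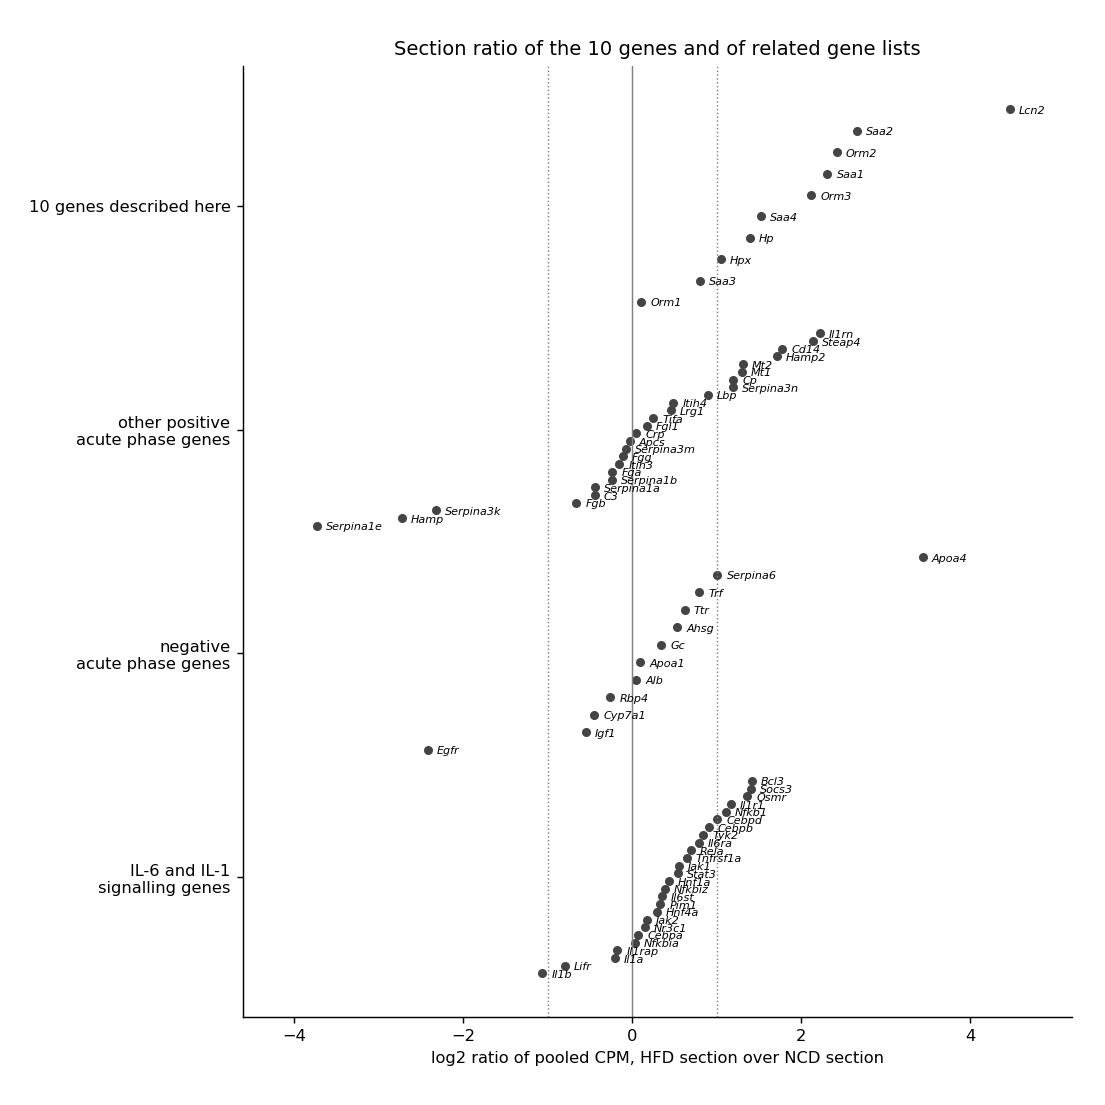
log2 ratio of pooled CPM, HFD section over NCD section, for each of the 10 genes and for genes of 3 related lists whose UMIs in both sections summed to at least 100; each point is a gene, and dotted lines mark a 2-fold difference. The 10 genes lie between 0.11 (Orm1) and 4.46 (Lcn2), while the other positive acute phase genes lie on both sides of 0, from -3.73 (Serpina1e) to 2.22 (Il1rn).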

How the data were processed

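Raw UMI counts per gene and spot, deposited by the authors without normalization, were made with Space Ranger 1.3.1 per the file headers. The submitters' processing notes name the build mm10, and the annotation is not given in the sources used here. Gene positions are those of GENCODE M21 (GRCm38) and promoters those of RefSeq (GRCm38.p6). The 10 genes, the lists and the rules were chosen with earlier results of these data known. CPM are the UMIs of a gene per 1000000 UMIs, both pooled over the spots called over tissue. Sums have exact Poisson intervals, ratios exact conditional binomial intervals and shares exact Clopper-Pearson intervals, all of 95%. No test was run, since each diet has 1 section. In ratios over all genes, a count below 3 was set to 3. The position index is the pericentral share of pericentral plus periportal UMIs. Random draws used seed 1. Genes named are the 10 genes, those of the lists (positive and negative acute phase, signalling, receptors, markers) and the 5 most like Saa1 and Saa2 or Lcn2 over HFD spots. Spots rich in Spp1 alone and in the bile duct list without Spp1, comparisons within the periportal group, the depth of 10000 UMIs and the richest NCD spot left out were added after seeing the data. The printed promoter stretch ends 61 bases before the RefSeq start, to leave out sequence transcribed from that start. The Lcn2 stretch still lies inside the GENCODE span of its gene. Alternatives changed the weighting, depth and minimum of spots, the genes in the total, the scaling, the subtraction of off-tissue signal and the position groups. The ratio intervals were checked on simulated counts that fall independently. That setting leaves out the clumping seen for Saa1 and Saa2. The tools were pandas 2.3.3, scipy 1.17.1, numpy 2.4.6 and matplotlib 3.10.9 under Python 3.11.15. Spot coordinates and images were not used here.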

Additional observations from a re-analysis of the deposited data

Results flagged for a closer look

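The lobule slope went opposite ways in the NCD and HFD sections for Saa2, Saa4 and Saa1 and Saa2 together, with both 95% counting intervals away from 0. The same held for 6 other genes, out of 27 on the positive and 12 on the negative acute phase list. This rule was not applied to all genes, so there is no share over all genes to set these counts against. In abundant genes it passes slopes close to 0, such as those of Ttr (0.03) and Serpina3k (0.04) in the NCD section. With 1 section per diet the difference between the slopes was not tested. The HFD minus NCD difference in the log2 ratio of pericentral to periportal groups was -1.25 for Saa2 (0.34 in NCD, -0.92 in HFD), -0.78 for Saa4 (0.62 and -0.16) and -1.09 for Saa1 and Saa2 together (0.22 and -0.87). It was -0.52 for Crp (0.24 and -0.29), -0.81 for Serpina3k (0.04 and -0.78), -0.41 for Fgl1 (0.27 and -0.13) and -0.43 for Lrg1 (0.35 and -0.08). Of the negative acute phase genes, Ttr had -0.29 (0.03 and -0.26), and Apoa4 went the other way, 2.27 (-1.94 and 0.33). Saa1 and Saa2 clump in spots, so their counting intervals are too narrow. Under the alternatives tried, the NCD log2 ratio of Saa2 lay between 0.12 and 0.94 and that of Saa1 and Saa2 together between 0.06 and 0.38.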

How the results depend on the processing

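The 10 genes together were 1.17 higher in the HFD section on the log2 scale. The ratio was 1.08 as a mean of CPM per spot, 1.12 in spots drawn down to 3000 UMIs, 1.18 with mitochondrial and the 20 most abundant genes out of the total, 0.98 scaled to the median gene, 1.27 with the off-tissue profile subtracted and 1.16 without Mup genes in the total. Their pericentral to periportal ratio was -0.56 in the NCD section, and it was -0.72 without the mitochondrial and abundant genes, -0.46 with 3 position groups and -0.68 with 10. In the HFD section it was -0.74, and it was -0.70 as a mean per spot, -0.68 drawn down, -0.81 without those genes, -0.69 with equal weights, -0.72 without Cyp2e1 and Cyp2f2, -0.61 with 3 groups and -0.87 with 10. Gene by gene, only Orm1, HFD to NCD, changed sign among values whose interval left out 0, from 0.11 to -0.088 when scaled to the median gene. That scaling lowers every log2 ratio by 0.19. Leaving out the richest 1% of spots raised Saa2 from 2.66 to 3.07, Saa3 from 0.80 to 1.27 and Lcn2 from 4.46 to 4.98. These spots were ranked by the gene's own UMIs and held a larger share of them in the NCD section. The shares were 34.4% (NCD) and 12.6% (HFD) for Saa2, 43.7% and 21.4% for Saa3, and 36.0% and 8.15% for Lcn2. A rise was thus built into this setting. Leaving out the richest NCD spot gave 2.79 for Saa2, 0.99 for Saa3 and 4.54 for Lcn2. The lobule ratios of Saa3 and of Orm2 in the HFD section had intervals that included 0. NCD lobule ratios of Lcn2 and Orm3 rest on few UMIs, and Orm3 without the richest 1% of spots gave no value, as no UMI was left in the periportal group. No paired analysis was possible because each group has 1 section.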
